A study of Homo sapiens with 6 samples.

Results

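The genes described here were 4 subunits of the transcription factor NF-kB (NFKB1, NFKB2, RELA and RELB), 2 of its feedback genes (NFKBIA and TNFAIP3) and 4 CXC chemokine genes (CXCL1, CXCL2, CXCL3 and CXCL8). They were taken as a fixed list of names, all 10 were found among the 60612 genes listed, and the rule that lists them uses no measured value. The list was nevertheless chosen with earlier results of these data known. RNA sequencing had been run on HCT116, an established cell line from a human colorectal carcinoma, to ask what overexpression of the small nucleolar RNA SNORA28 changes. There were 6 libraries: 3 were made after infection with a control lentivirus, LV-NC, and 3 after infection with LV-SNORA28, a lentivirus that carries SNORA28. All 6 libraries thus came from virus-infected cells of 1 line, and a library of uninfected cells was not analysed here.

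NF-kB is a dimer of Rel family proteins that is held in the cytoplasm by inhibitors of the I-kappaB family until a receptor signal leads to their removal. RELA with the NFKB1 product p50 is the usual dimer of the canonical pathway, while RELB with the NFKB2 product p52 is the usual dimer of the non-canonical pathway. NFKBIA and TNFAIP3 are themselves induced by NF-kB and switch it off again, and the CXC chemokines are secreted attractants of neutrophils that NF-kB induces in epithelial cells.

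SNORA28 itself was listed at 0.92, 0 and 0.64 FPKM under LV-NC, against 15.01, 13.66 and 15.2 FPKM under LV-SNORA28, which separated the groups as labelled. FPKM is a fragment count divided by transcript length and by the mapped total, so levels of different genes can be set side by side. Between 11664 and 12259 genes per library reached 1 FPKM. The share of the FPKM sum taken by the 37 mitochondrially encoded genes ran from 42.7% to 47.7% in LV-NC and from 35.9% to 38.3% in LV-SNORA28, without overlap. Markers of colon epithelium summed to between 816.5 and 917.7 FPKM in LV-NC and between 853.6 and 900.9 FPKM in LV-SNORA28, with VIL1 at no more than 0.04 FPKM in any library. Nothing in the labels says that the 3 libraries of a group came from separate cultures, so the p-values measure only the spread between these libraries, which may be technical.

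Because the members are named for their tie to NF-kB, the sites that could bind it are shown before the levels. RefSeq promoter windows, from 250 bases before to 50 bases after an annotated start on GRCh38.p14, were held for 9 of the 10 members, RELB being the member with none. Motifs were searched on both strands, and a gene was counted where any of its windows held a match. The kappaB consensus was found in 7 of these 9 members, in 7.09% of all 27305 genes and in 5.91% of all 35116 windows. The core GGAATTTCC was found in 6 of the 9, in 0.56% of all genes and in 0.461% of all windows. It was present in all 4 chemokine genes, in NFKB1 and in NFKBIA, and in every one of them except CXCL8 it lay inside a match to the kappaB consensus. The AP-1 motif TGANTCA was found in 1 of the 9 (CXCL8) and in 7.71% of all windows, and the motif TATAAA in 2 of the 9 (CXCL8 and NFKBIA) and in 11.5% of all windows. A match is a description of the letters and not evidence that a factor was bound in these cells.

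The 30 bases around each match are printed 5' to 3' on the strand of the gene. Capitals mark the match to the kappaB consensus or its core, except in the CXCL8 AP-1 line, where they mark TGANTCA. 
CXCL8 core (chr4:73740468-73740497, plus strand): tgcaaatcgtGGAATTTCCtctgacataat
CXCL8 AP-1 (chr4:73740421-73740450, plus strand): aggaagtgtgaTGACTCAggtttgccctga
CXCL1 (chr4:73869305-73869334, plus strand): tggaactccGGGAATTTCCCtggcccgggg
CXCL2 (chr4:74099253-74099282, minus strand): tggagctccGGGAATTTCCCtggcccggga
CXCL3 (chr4:74038748-74038777, minus strand): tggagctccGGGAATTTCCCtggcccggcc
NFKB1 (chr4:102501300-102501329, plus strand): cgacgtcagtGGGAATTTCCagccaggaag
NFKBIA (chr14:35404811-35404840, minus strand): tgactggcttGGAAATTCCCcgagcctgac
TNFAIP3 (chr6:137867188-137867217, plus strand): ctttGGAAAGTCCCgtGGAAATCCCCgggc
NFKB2, the site farther from the start (chr10:102394462-102394491, plus strand): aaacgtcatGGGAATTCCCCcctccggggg
NFKB2, the nearer site (chr10:102394490-102394519, plus strand): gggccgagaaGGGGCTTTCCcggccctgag

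Counted from the annotated start, the matched stretch began at base -91 in CXCL8, at -79 in CXCL1 and CXCL3, at -78 in CXCL2, at -49 in NFKB1, at -81 in NFKBIA and at -67 in TNFAIP3. In CXCL1, CXCL2 and CXCL3 the capitals are the same letters, matched on both strands. The whole 300-base windows were 82.5% identical between CXCL1 and CXCL3, 73.7% between CXCL2 and CXCL3 and 69.7% between CXCL1 and CXCL2, against 40.9% to 43.7% between CXCL8 and each of them. The CXCL8 and CXCL1 stretches, and those of CXCL2, NFKB1 and NFKBIA, touched no GENCODE exon of their gene. Both NFKB2 stretches lay at -107 and -78 from the start at position 102394578 of chromosome 10 and within a 5' untranslated exon of an NFKB2 transcript that starts upstream. The CXCL3 stretch lay within an exon of a CXCL3 transcript with no defined coding part, and the TNFAIP3 stretch reached a 5' untranslated exon of that gene. A further NFKB2 start, at position 102395705, had matches to the consensus at -176 and -21 that are not printed.

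Of the 10 members, 2 were higher in LV-SNORA28 than in LV-NC at an adjusted p below 0.05, namely the subunit gene NFKB2 and the chemokine gene CXCL8, and none was lower. The other subunits, both feedback genes and CXCL1, CXCL2 and CXCL3 did not pass the test. Groups whose libraries did not overlap were found for 4 members, NFKB2, RELB, TNFAIP3 and CXCL8, each of them higher in LV-SNORA28. Differences were fitted with limma on log2(FPKM + 1), a scale that understates the change of low genes, and p-values were adjusted over all genes tested. The fit held the 12076 genes whose mean reached 1 FPKM, and 6 members passed that filter. Of all these genes 8.91% were called at an adjusted p below 0.05 and 35.1% had groups apart. With 1 call and 3 separations among 6, the members were not shown to differ from other genes. The 4 chemokine genes were below the filter and were read from a limma fit of the 32761 genes that were not 0 throughout, of which 1.21% were called and 18.9% had groups apart.

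**Figure D1:**
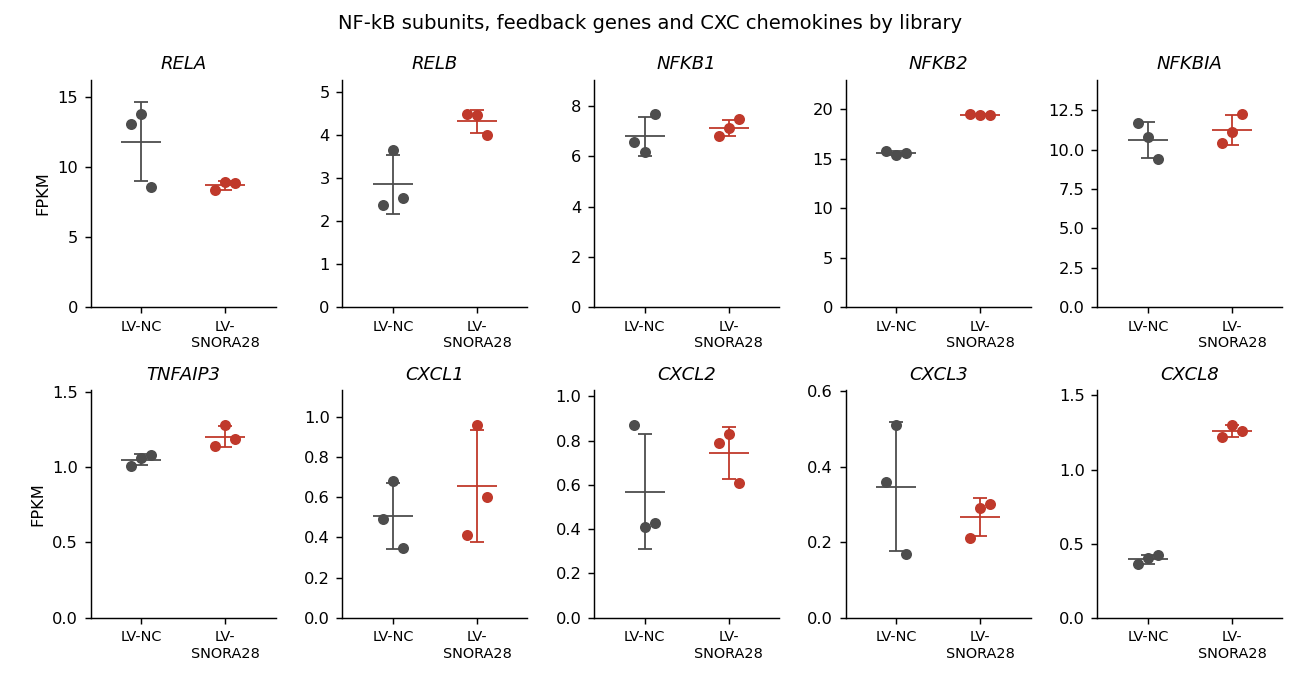
FPKM of the 10 members in each library (points), with the group mean and SD (bars, n = 3), LV-NC in grey and LV-SNORA28 in red, each axis starting at 0. The LV-SNORA28 libraries lie above every LV-NC library for RELB, NFKB2, TNFAIP3 and CXCL8 and overlap them for the other 6 genes.

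NFKB2 (ENSG00000077150; chromosome 10, 102394110 to 102402524, plus strand), which encodes the precursor p100 and its product p52, was listed at 15.76, 15.39 and 15.56 FPKM under LV-NC, against 19.49, 19.44 and 19.46 FPKM under LV-SNORA28. All 3 LV-SNORA28 libraries were above all 3 LV-NC libraries, and the spread within each group was small beside the gap between them. The LV-NC mean was 15.6 ± 0.185 and the LV-SNORA28 mean 19.5 ± 0.0252 FPKM (SD, n = 3 each), a level 25.0% higher. On the log2(FPKM + 1) scale the difference was 0.30 (SE 0.0517, 95% interval 0.18 to 0.43), and the adjusted p from limma was 0.0212. Without LV-NC 1 it was 0.0452 in limma. It rose to 0.0598 without LV-NC 2, 0.0613 without LV-NC 3, 0.0646 without LV-SNORA28 1, 0.0857 without LV-SNORA28 2 and 0.0817 without LV-SNORA28 3 in the same limma fits, so the call was lost in 5 of these 6 fits. With FPKM rescaled to the nuclear genes, which takes out the mitochondrial share, the difference was 0.28 and the adjusted p in limma 0.0330. After quantile normalization the difference was 0.23 and the adjusted p in limma 0.0490, close to the threshold. In RNA from whole cultures, a higher level in every cell and a higher share of cells that express the gene cannot be told apart.

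RELB (ENSG00000104856; chromosome 19, 45001461 to 45038192, plus strand), the usual partner of p52, was listed at 2.38, 3.65 and 2.53 FPKM under LV-NC, against 4.48, 4.47 and 4.0 FPKM under LV-SNORA28. The groups did not overlap, although LV-NC 2 stood closer to the LV-SNORA28 libraries than to the other LV-NC libraries. The LV-NC mean was 2.85 ± 0.694 and the LV-SNORA28 mean 4.32 ± 0.274 FPKM (SD, n = 3 each), a ratio of 1.51. The difference of 0.48 on the log2(FPKM + 1) scale (SE 0.133, 95% interval 0.16 to 0.80) did not pass (adjusted p 0.0742 in limma). Without LV-NC 2 the difference was 0.62 and the adjusted p in limma was 0.0294, so that 1 library decided the call.

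RELA (ENSG00000173039; chromosome 11, 65653599 to 65663090, minus strand), which carries a strong activation domain, was listed at 13.09, 13.76 and 8.59 FPKM under LV-NC, against 8.33, 8.91 and 8.83 FPKM under LV-SNORA28. LV-NC 3 fell within the range of the LV-SNORA28 libraries, while LV-NC 1 and LV-NC 2 lay well above them. The LV-NC mean was 11.8 ± 2.81 and the LV-SNORA28 mean 8.69 ± 0.314 FPKM (SD, n = 3 each), and the difference of -0.38 (SE 0.164, 95% interval -0.77 to 0.02) did not pass (adjusted p 0.193 in limma). Without LV-NC 3 the difference was -0.57 and the adjusted p in limma 0.0271, so here too 1 control library decided the call. RELA shares 103 bases with RELA-DT on the opposite strand, which was listed at between 0.16 and 0.4 FPKM.

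NFKB1 (ENSG00000109320; chromosome 4, 102501330 to 102617302, plus strand), which encodes p105 and its product p50, was listed at 6.58, 6.16 and 7.67 FPKM under LV-NC, against 6.83, 7.13 and 7.47 FPKM under LV-SNORA28. The LV-SNORA28 libraries lay inside the range of the controls. The difference of 0.07 (SE 0.0889, 95% interval -0.15 to 0.28) had an adjusted p of 0.676 in limma, and it was -0.03 after quantile normalization.

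**Figure D2:**
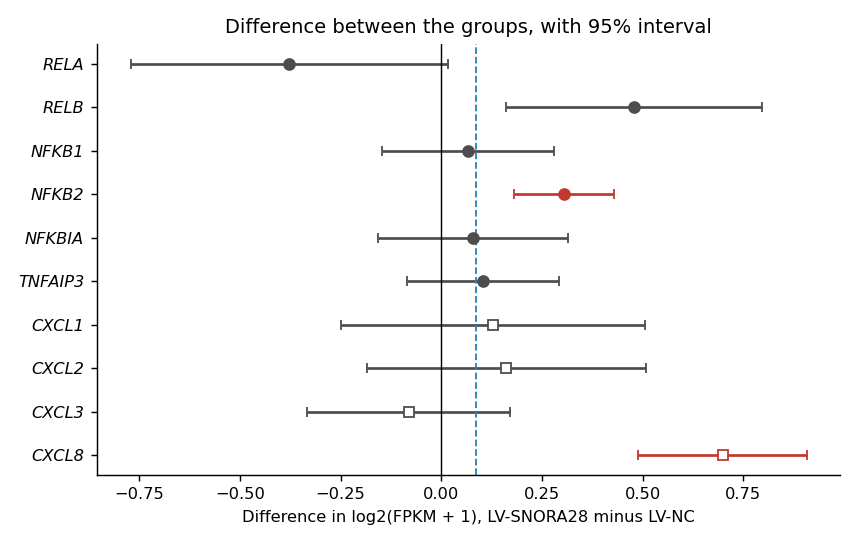
Difference in log2(FPKM + 1), LV-SNORA28 minus LV-NC, with its 95% interval for each member, in red where the adjusted p was below 0.05. Circles come from the fit of 12076 genes and open squares from the fit of 32761 genes, and the dashed line is the median over the 12076 genes (0.09); NFKB2, at 0.30, and CXCL8, at 0.70, are the members in red.

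Among the feedback genes, NFKBIA (ENSG00000100906; chromosome 14, 35401079 to 35404749, minus strand) encodes I-kappaB-alpha, which binds NF-kB and takes it out of the nucleus. It was listed at 11.7, 10.78 and 9.38 FPKM under LV-NC, against 10.4, 11.1 and 12.24 FPKM under LV-SNORA28. The libraries of the groups were interleaved. The difference of 0.08 (SE 0.0982, 95% interval -0.16 to 0.31) had an adjusted p of 0.651 in limma, and it was -0.01 after quantile normalization.

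TNFAIP3 (ENSG00000118503; chromosome 6, 137867214 to 137883314, plus strand) encodes A20, a ubiquitin-editing enzyme that damps signalling upstream of NF-kB. It was listed at 1.01, 1.06 and 1.08 FPKM under LV-NC, against 1.14, 1.28 and 1.19 FPKM under LV-SNORA28. Every LV-SNORA28 library was above every LV-NC library, by a narrow margin between the nearest. The means were 1.05 ± 0.0361 and 1.20 ± 0.0710 FPKM (SD, n = 3 each), and the difference of 0.10 (SE 0.0785, 95% interval -0.08 to 0.29) had an adjusted p of 0.439 in limma, and it was 0.02 after quantile normalization. The gene overlaps WAKMAR2 on the opposite strand over 1020 bases, and WAKMAR2 was at no more than 0.04 FPKM.

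The chemokine genes were the lowest members in LV-NC. CXCL8 (ENSG00000169429; chromosome 4, 73740519 to 73743716, plus strand), which encodes interleukin-8, was listed at 0.36, 0.4 and 0.42 FPKM under LV-NC, against 1.22, 1.3 and 1.26 FPKM under LV-SNORA28. Every LV-SNORA28 library stood far above every LV-NC library, and the libraries within a group lay close together. The mean rose from 0.393 ± 0.0306 to 1.26 ± 0.0400 FPKM (SD, n = 3 each), a ratio of 3.20. The difference of 0.70 on the log2(FPKM + 1) scale (SE 0.0855, 95% interval 0.49 to 0.91) had an adjusted p of 0.0309 in limma, and a pseudocount of 0.1 gave 1.46 (adjusted p 0.0252 in limma).

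CXCL8 also passed the threshold of the study, more than 1.5-fold with p below 0.05 before adjustment, when the fold was taken on the log2(FPKM + 1) scale, which 3.79% of the 12076 genes and 1.48% of the 32761 genes met. No other member did so on that scale, while RELB, with a ratio of mean FPKM of 1.51 and an unadjusted p of 0.00976 in limma, passes where the fold is the ratio of means. Leaving out any 1 library took the adjusted p of CXCL8 in limma to between 0.0708 (without LV-NC 1) and 0.106 (without LV-SNORA28 3), with 0.0958 without LV-NC 2, 0.0936 without LV-NC 3, 0.0868 without LV-SNORA28 1 and 0.0957 without LV-SNORA28 2 in limma. The difference itself stayed between 0.68 and 0.71 in these 6 fits. After rescaling to the nuclear genes it was 0.69 with an adjusted p of 0.0371 in limma. After quantile normalization it was 0.635 with an adjusted p of 0.0453 in limma, close to the threshold.

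CXCL1 (ENSG00000163739; chromosome 4, 73869393 to 73871308, plus strand) was listed at 0.49, 0.68 and 0.35 FPKM under LV-NC, against 0.41, 0.96 and 0.6 FPKM under LV-SNORA28. CXCL2 (ENSG00000081041; chromosome 4, 74097040 to 74099196, minus strand) was listed at 0.87, 0.41 and 0.43 FPKM under LV-NC, against 0.79, 0.83 and 0.61 FPKM under LV-SNORA28. CXCL3 (ENSG00000163734; chromosome 4, 74036589 to 74038807, minus strand) was listed at 0.36, 0.51 and 0.17 FPKM under LV-NC, against 0.21, 0.29 and 0.3 FPKM under LV-SNORA28. In each of these 3 genes, which encode the closely related GRO chemokines, the libraries of the groups overlapped. The differences were 0.13 for CXCL1 (95% interval -0.25 to 0.51, adjusted p 0.718 in limma), 0.16 for CXCL2 (95% interval -0.18 to 0.51, adjusted p 0.657 in limma) and -0.08 for CXCL3 (95% interval -0.33 to 0.17, adjusted p 0.740 in limma). These intervals are wide, and they do not show that the 3 genes were alike in both groups.

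CXCL1, CXCL2 and CXCL3 have similar transcripts, and whether the authors' counting divided reads among them was not tested. Their canonical transcripts were 83.2% identical between CXCL1 and CXCL2, 68.0% between CXCL1 and CXCL3 and 71.5% between CXCL2 and CXCL3, and no stretch of 100 bases of any of the 4 chemokine transcripts recurred exactly in another. Summed, CXCL1, CXCL2 and CXCL3 stood at 1.72, 1.6 and 0.95 FPKM under LV-NC, against 1.41, 2.08 and 1.51 FPKM under LV-SNORA28. The sum of these 3 genes overlapped between the groups, as each of them did alone. All 4 chemokines together stood at 2.08, 2.0 and 1.37 FPKM under LV-NC, against 2.63, 3.38 and 2.77 FPKM under LV-SNORA28, with means of 1.82 ± 0.389 and 2.93 ± 0.399 FPKM (SD, n = 3 each) and a ratio of 1.61. CXCL8 made up 17.3%, 20.0% and 30.7% of that sum in LV-NC and 46.4%, 38.5% and 45.5% in LV-SNORA28.

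**Figure D3:**
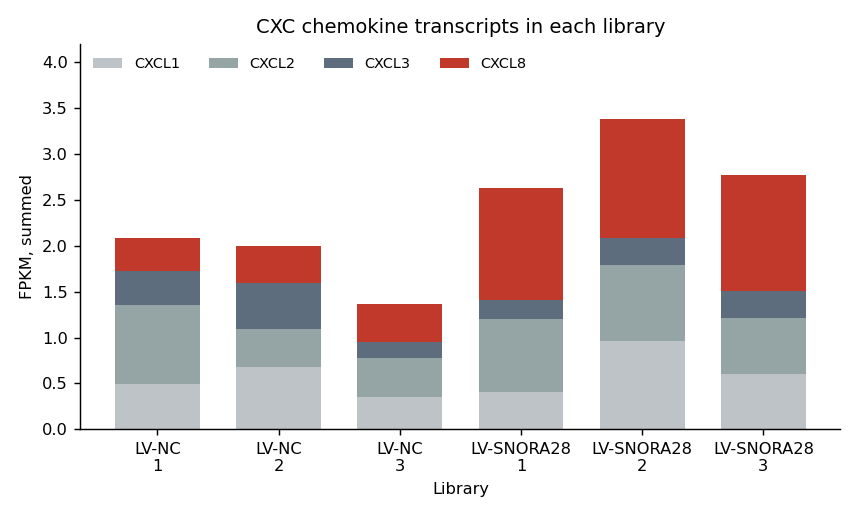
FPKM of CXCL1, CXCL2, CXCL3 and CXCL8 stacked for each library (bars start at 0, no error is drawn because each bar is 1 library). The CXCL8 segment is between 0.36 and 0.42 FPKM in LV-NC and between 1.22 and 1.3 FPKM in LV-SNORA28, while the 3 segments under it overlap in their sum.

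The 4 chemokine genes lie within 358.7 kb of chromosome 4 (73740519 to 74099196), together with 5 other protein-coding genes. Those 5, CXCL6, PF4V1, PF4, PPBP and CXCL5, were listed at 0 in all 6 libraries, and none of the 9 genes reached a mean of 1 FPKM. CXCL8 at one end of the interval was therefore the gene of the cluster whose groups did not overlap, and CXCL1, next among those with any signal, overlapped.

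Ordered by level, NFKB2 was the highest member in both groups. In LV-NC the order went on with RELA, NFKBIA, NFKB1, RELB and TNFAIP3 and ended with CXCL2, CXCL1, CXCL8 and CXCL3. The ranges of RELA and NFKBIA overlapped there, as did those of neighbours among the 4 chemokines, and the other neighbours were apart. In LV-SNORA28 NFKBIA stood above RELA without overlap, and CXCL8 had moved above the other chemokines to the side of TNFAIP3, whose range it overlapped. CXCL2 and CXCL1 overlapped there too, while CXCL3 was below them.

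Ratios of members within a library are free of any scaling of that library, and the following were chosen after the levels had been seen, so they carry no test. The ratio of NFKB2 to NFKB1 was 2.4, 2.5 and 2.03 in LV-NC and 2.85, 2.73 and 2.61 in LV-SNORA28. The ratio of RELB to RELA was 0.182, 0.265 and 0.295 in LV-NC and 0.538, 0.502 and 0.453 in LV-SNORA28, with means of 0.247 ± 0.0585 and 0.497 ± 0.0426 (SD, n = 3 each). In both ratios the groups were apart, and for RELB to RELA they were apart although RELA alone overlapped. CXCL8 stood at 0.735, 0.588 and 1.2 times CXCL1 in LV-NC and at 2.98, 1.35 and 2.1 times CXCL1 in LV-SNORA28. Its ratio to CXCL2 ran from 0.414 to 0.977 in LV-NC and from 1.54 to 2.07 in LV-SNORA28, and its ratio to CXCL3 from 0.784 to 2.47 and from 4.2 to 5.81.

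**Figure D4:**
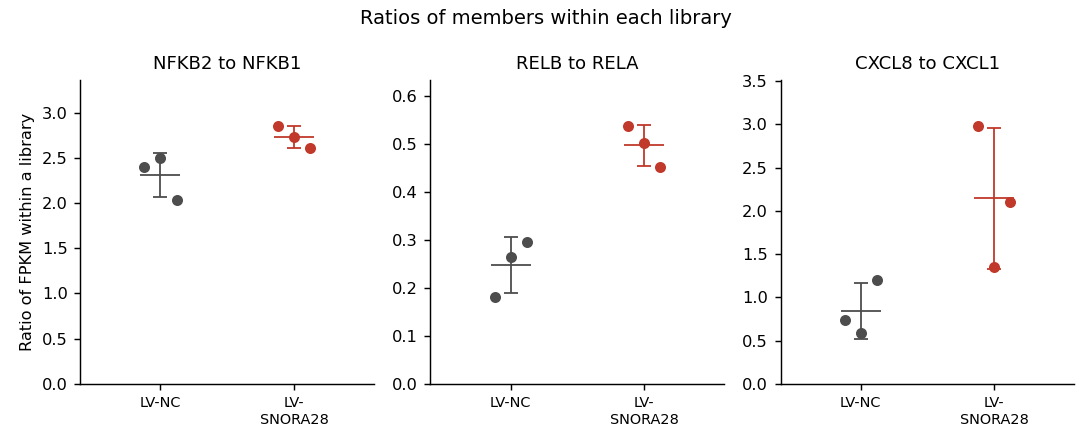
Ratio of FPKM values within each library (points) for NFKB2 to NFKB1, RELB to RELA and CXCL8 to CXCL1, with the group mean and SD (bars, n = 3), axes starting at 0. All LV-SNORA28 libraries lie above all LV-NC libraries in each panel, with RELB to RELA at 0.182 to 0.295 against 0.453 to 0.538.

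The wider pathway was read from lists of genes by role, to be read against the 8.91% of all tested genes that were called. Of 7 other genes of the NF-kB and I-kappaB family, 5 passed the filter and none was called, with a median difference of 0.06 against 0.09 over all genes tested. The highest of them were NFKBIB, another I-kappaB protein, at 12.1 ± 1.24 FPKM in LV-NC and 11.3 ± 1.02 FPKM in LV-SNORA28, and NKRF, a repressor of NF-kB target genes, at 6.95 ± 0.807 and 7.90 ± 0.187 FPKM (SD, n = 3 each). Neither passed the test.

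Of 40 genes that carry signals to NF-kB, from receptors to kinases, 33 were tested, 3 rose and 1 fell, a share of 12.1% called, with a median of 0.10. RIPK2, the kinase that relays signals from NOD receptors, was listed at 8.08, 9.06 and 8.28 FPKM under LV-NC, against 12.73, 11.94 and 12.51 FPKM under LV-SNORA28, a difference of 0.50 (adjusted p 0.0109 in limma). MALT1, the paracaspase of the CARD-BCL10-MALT1 complex, rose from 7.17 ± 0.427 to 9.69 ± 0.336 FPKM (SD, n = 3 each), a difference of 0.39 (adjusted p 0.0234 in limma). IL1R1, the signalling receptor of interleukin-1, was listed at 0.98, 0.77 and 0.67 FPKM under LV-NC, against 1.4, 1.56 and 1.46 FPKM under LV-SNORA28, a difference of 0.46 (adjusted p 0.0373 in limma). IL1R1 was under 1 FPKM on average in LV-NC and passed the filter through its LV-SNORA28 level. Its call, and the share of 12.1% that includes it, carry that limit. TNFRSF21, the death receptor DR6, fell from 31.3 ± 2.05 to 22.6 ± 1.92 FPKM (SD, n = 3 each), a difference of -0.45 (adjusted p 0.0253 in limma). MAP3K14, the kinase NIK that starts the processing of p100 in the non-canonical pathway, was listed at 5.37, 5.13 and 4.33 FPKM under LV-NC, against 4.19, 3.5 and 3.87 FPKM under LV-SNORA28, with a difference of -0.29 that did not pass (adjusted p 0.113 in limma). MAP3K14 is named for its place before NFKB2 and was chosen after its values were seen.

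Of 16 negative regulators of the pathway, 13 were tested and 1 rose, a share of 7.69%, with a median of 0.16. That gene was TAX1BP1, an adaptor of A20, at 10.6 ± 0.985 FPKM in LV-NC and 13.99 ± 0.527 FPKM in LV-SNORA28 (SD, n = 3 each), a difference of 0.38 (adjusted p 0.0373 in limma). RNF11, another partner of A20, was listed at 17.58, 17.59 and 9.04 FPKM under LV-NC, against 9.83, 20.09 and 20.57 FPKM under LV-SNORA28, a wide spread with 1 low library in each group. TNIP2, which binds A20, stood at 9.06 ± 0.458 and 9.09 ± 0.757 FPKM (SD, n = 3 each).

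Of 40 genes other than the members known as NF-kB targets, 39 were matched by symbol, 20 were tested, 2 rose and 1 fell, a share of 15.0% called, with a median of 0.05. The lists share genes: of those tested here, BIRC3, BCL3, NFKBIE, NFKBIZ and ZC3H12A also stood in the lists above, and none of them was called. JUNB, a subunit of AP-1, was listed at 29.54, 31.54 and 27.09 FPKM under LV-NC, against 45.55, 44.27 and 45.46 FPKM under LV-SNORA28, a difference of 0.60 (adjusted p 0.0076 in limma). IER3, an early response gene that modulates cell survival, was the most abundant of the called genes in these lists, at 226.97, 235.93 and 202.62 FPKM under LV-NC, against 330.96, 388.14 and 403.3 FPKM under LV-SNORA28, a difference of 0.75 (adjusted p 0.0105 in limma). LCN2, the iron-scavenging protein lipocalin-2, was lower, at 2.03, 1.84 and 1.31 FPKM under LV-NC, against 0.69, 1.0 and 0.69 FPKM under LV-SNORA28, a difference of -0.60 (adjusted p 0.0434 in limma). LCN2 was under 1 FPKM on average in LV-SNORA28 and passed the filter through its LV-NC level. KLF6, at 8.8, 2.49 and 8.3 FPKM in LV-NC and 10.28, 13.38 and 14.73 FPKM in LV-SNORA28, had the highest difference of the list, 1.00, but did not pass (adjusted p 0.162 in limma), and it too was named after its values were seen.

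JUNB and IER3 kept an adjusted p below 0.05 in limma with any 1 library left out, the highest being 0.0393 and 0.0473. RIPK2 lost its call without LV-SNORA28 3 alone (adjusted p 0.0508 in limma). MALT1, IL1R1 and TAX1BP1 lost theirs without LV-NC 2, LV-NC 3 or any LV-SNORA28 library, with adjusted p values in limma of up to 0.0891, 0.120 and 0.111. TNFRSF21 lost its call in all but the fit without LV-SNORA28 1 (up to 0.0925 in limma), and LCN2 in all but the fit without LV-NC 3 (up to 0.134 in limma). After quantile normalization the adjusted p in limma was 0.0600 for IL1R1 and 0.0922 for TAX1BP1, and the other 6 genes stayed below 0.05.

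**Figure D5:**
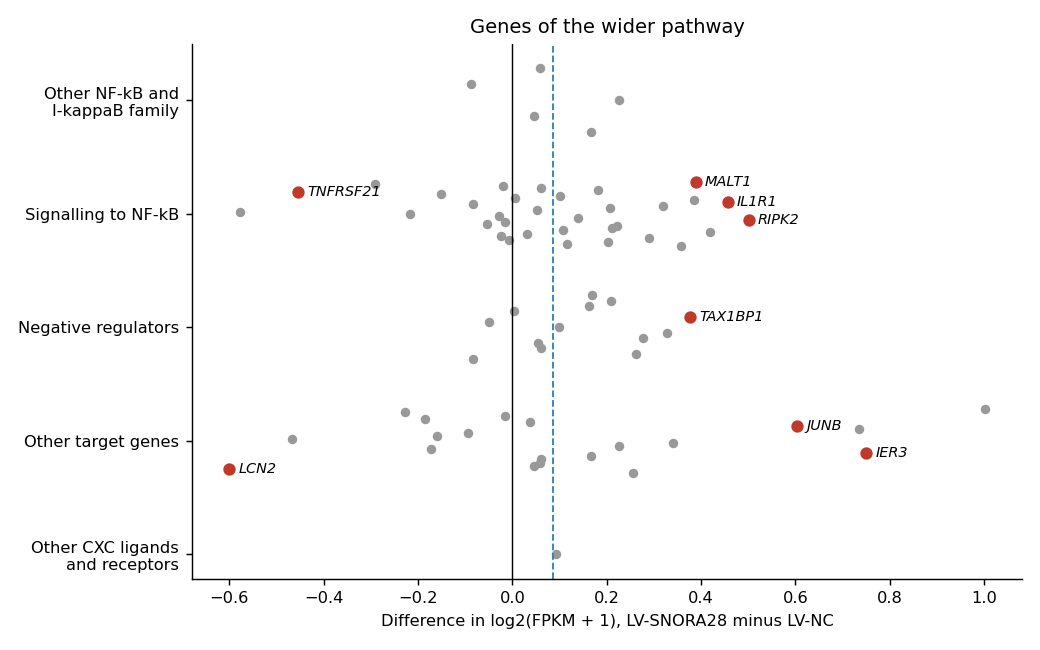
Difference in log2(FPKM + 1), LV-SNORA28 minus LV-NC, for every tested gene of the pathway lists (points, spread vertically for legibility), in red with its name where the adjusted p was below 0.05. The dashed line is the median over all 12076 genes (0.09), and the named genes run from LCN2 at -0.60 to IER3 at 0.75.

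CXCR1 and CXCR2, the receptors through which these chemokines act, were near 0, CXCR1 at between 0.02 and 0.17 FPKM and CXCR2 at between 0.08 and 0.16 FPKM over the 6 libraries. Of 20 other CXC chemokines and CXC receptors, 9 were listed at 0 in all libraries and 1 was tested. That gene, the membrane-bound chemokine CXCL16, stood at 13.6 ± 2.90 FPKM in LV-NC and 14.5 ± 2.09 FPKM in LV-SNORA28 (SD, n = 3 each), with a difference of 0.09 (adjusted p 0.755 in limma). CXCR4, the next most abundant, stood at 0.130 ± 0.0755 and 0.133 ± 0.0751 FPKM (SD, n = 3 each).

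Since leukocytes make chemokines, their markers were read beside CXCL8. The 8 leukocyte markers summed to between 1.79 and 3.37 FPKM in LV-NC and between 4.12 and 5.78 FPKM in LV-SNORA28, without overlap, and most of the sum came from CD68 and HLA-DRA, the 2 that passed the filter. CD68 was listed at 2.07, 2.06 and 0.95 FPKM under LV-NC, against 2.27, 4.12 and 3.14 FPKM under LV-SNORA28. HLA-DRA was listed at 1.05, 0.49 and 0.59 FPKM under LV-NC, against 1.58, 1.59 and 1.3 FPKM under LV-SNORA28, and it passed the filter through its LV-SNORA28 level. Both CD68 and HLA-DRA had groups apart, with higher values in LV-SNORA28, and neither was called (adjusted p 0.134 and 0.0587 in limma). Their part in the CXCL8 result was not tested. PTPRC, the defining marker CD45, was at 0.03, 0.08 and 0.05 FPKM under LV-NC, while all 3 LV-SNORA28 libraries listed it at 0, and CD3E was at no more than 0.02 FPKM in any library. Markers of fibroblasts summed to between 3.23 and 4.52 FPKM in LV-NC and between 3.22 and 4.17 FPKM in LV-SNORA28, and came almost wholly from COL1A1, with COL1A2, DCN and LUM at 0. Endothelial markers summed to no more than 0.16 FPKM.

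Among all tested genes, the members included, those with a kappaB match in a promoter window were counted as a description. Of 45 tested genes with the core GGAATTTCC in a window, 5 rose and none fell (11.1% called, median 0.08), against 8.54% called and a median of 0.09 over the 8817 tested genes with any window. The 5 were OPTN, STXBP3, PLLP, KANK1 and CCDC3, with differences of 0.47, 0.37, 0.99, 0.52 and 0.53, and they are named as a small count seen after the fit. For the 800 tested genes with the kappaB consensus, 51 rose and 16 fell (8.38% called, median 0.08). The called member NFKB2 is among those that rose. The other motifs were counted in the same way. Of 659 tested genes with TATAAA, 69 rose and 11 fell (12.1% called, median 0.11), a higher share than for the core. Of 555 tested genes with TGANTCA, 42 rose and 6 fell (8.65% called, median 0.09).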

How the data were processed

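RNA was sequenced from HCT116 cells in 6 libraries, 3 LV-NC and 3 LV-SNORA28, grouped by their titles. For each library the authors deposited FPKM values by Ensembl gene identifier. Libraries were poly(A)-selected and marked strand with dUTP. The submitters' processing notes name cutadapt 1.9, HISAT2 2.2.1, StringTie 2.1.6, DESeq2, edgeR and hg38 without stating their roles, and the annotation release and counting settings are not given in the sources used here. FPKM is a relative measure, so that abundant transcripts that change move the values of all others.

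Symbols and coordinates came from GENCODE release 44 on GRCh38, which gave a symbol to 60401 of 60612 genes. Read depth was unknown. Low values of 4842 single-exon genes were set against many step sizes in each library. At the best of these, 32.0% to 35.6% of the low values were within 0.1 of a whole step. The share by chance is 20% for a fixed step and is not known for the best of many. Whole reads were not recovered, and no counting interval is given. The precision of low values is therefore unknown beyond the spread between libraries. No library was a repeat of another, since 26342 or more genes differed in each pair.

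Values were fitted as log2(FPKM + 1) with limma 3.58.1 in R 4.3.3 (lmFit, eBayes with trend, two-sided p, Benjamini-Hochberg adjustment, threshold 0.05) on the 12076 genes whose mean reached 1 FPKM. Members below that filter were read from the fit of 32761 genes not at 0 throughout. The fit of the filtered genes was also run on simulated data. The planted changes there were larger than the differences of NFKB2 and CXCL8, so that run does not cover changes of their size. Motifs and identities were computed in Python 3.11.15 with Biopython 1.88, and promoter sequences were those of RefSeq on GRCh38.p14.

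The members and lists were chosen with earlier results of these data known. The text names all members, up to 4 called genes per list by adjusted p and, where fewer than 2 passed, the 2 with the highest mean. Also by rule, for CXCL8 and RELB, the members with the widest spread of log2 values among the chemokines and among the others, the 5 genes most like each are named. Alternatives were other filters, a pseudocount of 0.1, quantile normalization, scaling to nuclear genes, no trend, the threshold of the study, a replicate block and each library left out. The ratios within libraries, the genes counted by promoter motif, the genes between CXCL8 and CXCL2 and the alternatives for members below the filter were added after the data had been seen. Count models were not used, since no counts were held.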

Additional observations from a re-analysis of the deposited data

How the results depend on the processing

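NFKB2 was higher in LV-SNORA28 under every alternative run, and CXCL8 under every one that held it. The filter of a mean of at least 5 FPKM left CXCL8 out. The limits are those of 3 libraries per group and of low FPKM. Of all genes tested, 1076 were called (822 higher, 254 lower), against 510 with the replicate number as a block, 397 with no filter, 458 at the threshold of the study and 279 to 628 with 1 library left out. Under quantile normalization the calls were 451 higher and 375 lower. Of the members, 2 were called, against 0 with the replicate block (adjusted p in limma 0.0581 for NFKB2 and 0.143 for CXCL8), 1 with a mean of at least 5 FPKM, which leaves fewer members in the fit, 1 at the threshold of the study with the fold on the log2(FPKM + 1) scale and 0 to 1 with 1 library left out. The pathway lists held 8 calls, against totals of 4 with the replicate block, 3 with no filter, 4 at the threshold of the study and 2 to 7 with 1 library left out, and these totals need not be the same genes. The direction reversed after quantile normalization for NFKB1 (-0.0311) and NFKBIA (-0.0138), for NFKBIA between -0.000936 and 0.14 and for CXCL3 between -0.18 and 0.00524 with 1 library left out, and none of these passed the test. The cause of these changes was not tested, beyond the smaller number of libraries or genes that an alternative holds. Deviations of libraries with the same number correlated at -0.04, 0.09 and 0.01, which showed no sign of pairing. With 3 libraries per group these values cannot settle whether the numbers pair the libraries. Groups stayed apart for 3 or 4 members under either scaling, and the ratio of the summed chemokine level stayed between 1.43 and 1.74. Tests with edgeR and DESeq2 were not run, since no counts were held.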

Other observations

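The genes whose 6 values were most like those of CXCL8 were PAIP1P2, GALNT2, PRKAR2B, PAQR5 and ING1, by the root mean squared difference of centred log2(FPKM + 1) values over the 6 libraries among 12076 genes, which was between 0.0324 and 0.0413. GALNT2, an enzyme that starts O-glycans, was listed at 6.09, 5.97 and 6.44 FPKM under LV-NC, against 10.16, 10.39 and 10.78 FPKM under LV-SNORA28. PRKAR2B, a regulatory subunit of protein kinase A, was listed at 2.36, 2.48 and 2.55 FPKM under LV-NC, against 4.88, 4.98 and 4.61 FPKM under LV-SNORA28. PAIP1P2 carries the name of a pseudogene of PAIP1, and its count is uncertain where reads of the parent gene match both. PAIP1P2 was listed at 0.58, 0.68 and 0.65 FPKM under LV-NC, against 1.67, 1.84 and 1.64 FPKM under LV-SNORA28. It passed the filter through its LV-SNORA28 level. All 5 had low spread within groups and higher levels in LV-SNORA28, which is what the measure looks for.

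For RELB, among the 12075 other genes, the nearest were CGRRF1, RHBDD2, ZWILCH, GAMT and PIR, with a root mean squared difference between 0.0361 and 0.0616. They shared with RELB the higher value of LV-NC 2. CGRRF1 was listed at 0.78, 1.4 and 0.79 FPKM under LV-NC, against 1.73, 1.82 and 1.44 FPKM under LV-SNORA28. It too passed the filter through its LV-SNORA28 level. RHBDD2 was listed at 8.78, 12.5 and 8.78 FPKM under LV-NC, against 14.58, 13.93 and 12.41 FPKM under LV-SNORA28, so that LV-NC 2 overlapped the other group there. ZWILCH, a subunit of the kinetochore complex with ROD and ZW10, was listed at 3.59, 5.75 and 3.85 FPKM under LV-NC, against 6.17, 6.66 and 5.53 FPKM under LV-SNORA28.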
